A study of Mus musculus with 16 samples.

Results

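The contrast described here asks whether mouse embryonic stem (ES) cells kept in serum left naive pluripotency with the same gene expression changes over 24 h as cells kept without serum. It is a difference of differences. The change from 0 to 24 h after 2i and LIF were removed (the exit effect) was taken in cells from serum/LIF+2i and in cells from 2i/LIF, and the second was subtracted from the first on the log2 scale. The result is called the interaction. A positive value means that the exit effect was more positive from serum/LIF+2i, either because a gene rose more or because it fell less. The contrast uses 8 of the 16 libraries of the series, 2 in each of 4 groups, and was tested in 14288 of the 27179 genes in the deposited count table, which are the genes with enough reads.

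ES cells come from the inner cell mass of the blastocyst and can be held in a naive state that resembles the preimplantation epiblast. Cells labelled 2iLIF were kept in a serum-free mix of DMEM/F-12 and Neurobasal medium with N-2 and B-27 supplements, 2 mM glutamine, leukaemia inhibitory factor (LIF) and 2i. Cells labelled 2iSL were kept in knockout DMEM with 10% fetal bovine serum, 2 mM glutamine, LIF and 2i. In both media 2i was 3 uM CHIR99021, an inhibitor of GSK3, plus 1 uM PD0325901, an inhibitor of MEK. Both cultures had been adapted from serum and LIF without 2i, on gelatin, and the name of the cell line is not given in the sources used here.

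For exit, the serum-free medium of the 2i/LIF cells was kept, with 2i and LIF left out. For the cells that had been in serum, the exit medium was a mix of glutamine-free DMEM and Neurobasal with N-2, B-27 and 2 mM glutamine. These cells therefore lost serum as well as 2i and LIF, and entered another base medium. Maintenance medium, loss of serum and the base medium of the exit step cannot be told apart in any value below. Nothing in the labels says that the 2 libraries of a group came from separate cultures, so p-values measure the spread between these libraries, which may be technical.

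When 2i and LIF are removed, ERK signalling is released, the support of Wnt and STAT3 signalling ends, and the transcription factors of the naive state are lost before the formative genes of the postimplantation epiblast come on. A pair of stress pathways matter below. In the integrated stress response, kinases that sense lack of amino acids or misfolded protein phosphorylate eIF2alpha, which raises translation of the transcription factor ATF4, and ATF4 then activates genes for amino acid synthesis, amino acid uptake and charging of tRNA. In the unfolded protein response of the endoplasmic reticulum (ER), ATF6 and XBP1 activate genes for chaperones and for the disposal of misfolded proteins.

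Total counts of the 8 libraries ran from 5931381 to 9634680. The 2 deepest were those at 24 h from serum/LIF+2i (9065257 and 9634680), and the others reached at most 7284740. The 8 ES cell identity markers (Pou5f1, Sox2, Nanog, Esrrb, Zfp42, Klf4, Tfcp2l1 and Dppa3) were detected in all 4 groups, and their summed level ran from 5493 to 5871 CPM (counts scaled to a common library total) at 0 h and from 1818 to 2020 CPM at 24 h. Summed markers of primitive endoderm ran from 8.79 to 35.2 CPM and those of trophoblast from 15.5 to 97.1 CPM. Of the 8 fibroblast markers, between 2 and 4 had no count in a given group. Ribosomal RNA took 0.551% to 1.77% of the counts, with the highest share in 1 library at 24 h from serum/LIF+2i (replicate 1). Without that library the interaction at 24 h was called in 2528 genes, and the positive and negative calls of the 4 lists that lead below were 22 and 0 (amino acid response), 14 and 0 (ER chaperones), 0 and 16 (glycolysis) and 1 and 12 (naive pluripotency).

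An interaction at 24 h was called in 2966 of 14288 genes (20.8%) at an adjusted p under 0.05 (edgeR's quasi-likelihood test), 1396 positive (9.77%) and 1570 negative (11.0%). At an unadjusted p under 0.05 there were 4469. Most of these differences were modest. The median absolute interaction of the called genes was 0.48 on the log2 scale, with quartiles of 0.32 and 0.80, and 1548 lay under 0.5. The direction differed with size, since of the 529 called genes at or beyond 1 on the log2 scale, 342 were positive and 187 negative. DESeq2 called 1764 genes for the interaction at 24 h. Tested against a minimum change of 1 on the log2 scale, 55 genes passed, 42 of them positive.

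The exit effect itself was called for 8405 genes (58.8%) from 2i/LIF and for 9199 genes (64.4%) from serum/LIF+2i, and these 2 comparisons share no library. Among the 2966 genes, the largest class moved the same way in both media but further from serum/LIF+2i: 419 rose more and 531 fell more. In 230 genes the rise was smaller from serum/LIF+2i and in 208 the fall was smaller, a class that held 2871 of all tested genes. Another 754 genes passed the exit test only from serum/LIF+2i and 539 only from 2i/LIF, against 2410 and 1616 of all tested genes. Exit effects called in opposite directions were seen in 258 genes (1.81% of all tested), of which 115 rose from serum/LIF+2i and fell from 2i/LIF and 143 did the reverse. In the remaining 27 genes neither exit effect was called, against 3473 of all tested genes.

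**Figure D1:**
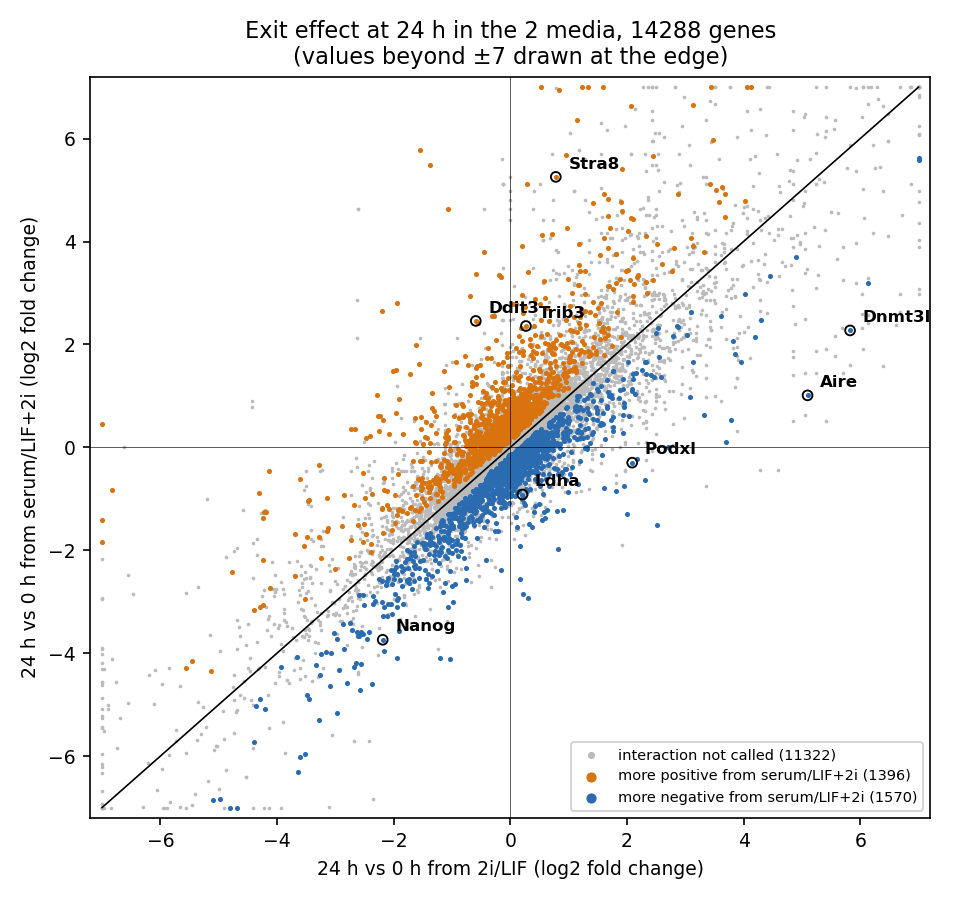
Log2 fold change from 0 to 24 h of 14288 genes in cells from 2i/LIF (x axis) and from serum/LIF+2i (y axis), each point a gene and the line marking equal effects. Orange marks the 1396 genes with a called positive interaction, blue the 1570 with a called negative one, and grey the rest. Ddit3, Trib3 and Stra8 lie far above the line, and Aire, Dnmt3l, Podxl, Ldha and Nanog below it.

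The same genes can be sorted by how the media differed before and after exit. The difference between the media was called for 4710 genes at 0 h (33.0%) and for 4439 at 24 h (31.1%), from separate libraries. Of the 2966 genes with an interaction, 1122 differed between the media at 0 h alone, so that the gap was no longer called at 24 h. In 873 genes it was called at 24 h alone. In 363 it was called at both times in 1 direction and in 451 with opposite sign, and 157 passed at neither time. Over all tested genes these classes held 2585, 2314, 1674, 451 and 7264, in the same order.

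Groups of genes, chosen from general knowledge of these pathways with earlier results of these data known, differed in how many members had an interaction. Their excess over the background is therefore no independent test. The 4 below stood furthest from the background of 9.77% positive and 11.0% negative. The response to amino acid shortage had 22 positive and 0 negative calls among 27 tested members, and the ER chaperones 14 and 0 among 18. Glycolysis had 1 positive and 16 negative calls among 22, and naive pluripotency 1 and 12 among 17. At the other end, cytosolic ribosomal proteins had 0 positive and 2 negative calls among 21 members. Counts and medians over a list describe its members and are set beside those over all tested genes, whose median interaction was 0.00.

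**Figure D2:**
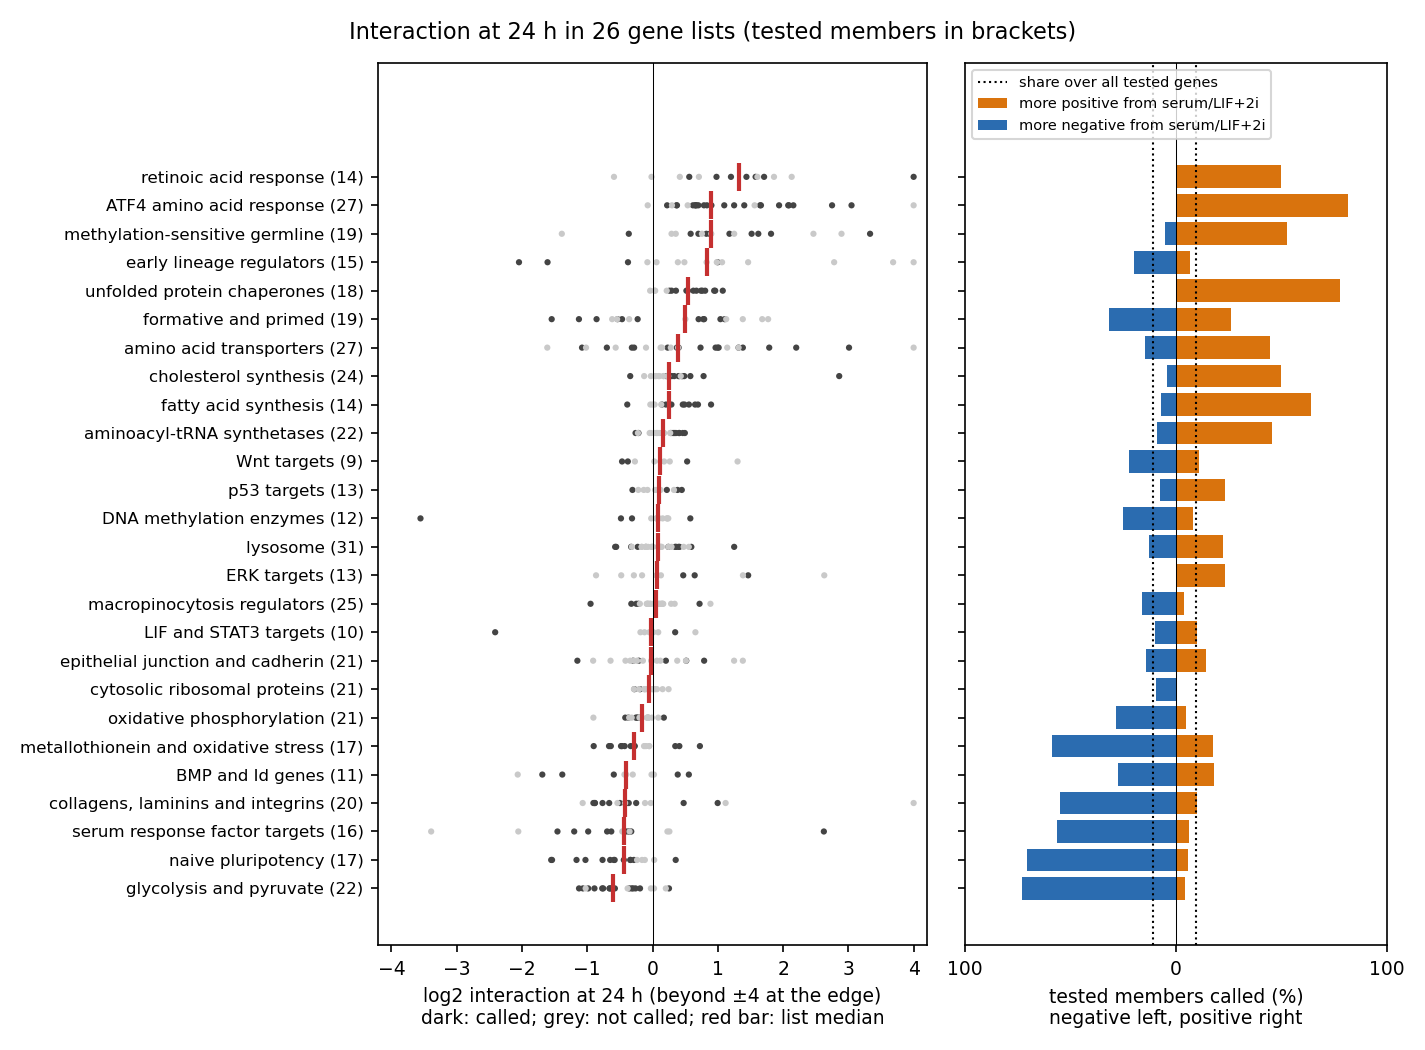
Interaction at 24 h in 26 gene lists, with the number of tested members in brackets. Left, each point is a gene (dark where called), and the red bar is the list's median on the log2 scale. Right, bars give the share of members called positive (orange) and negative (blue), and dotted lines mark 9.77% and 11.0%, the shares over all tested genes.

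The amino acid response list holds ATF4, the factors that work with it, its feedback regulators and the enzymes it controls. From serum/LIF+2i, 26 of the 27 members rose over 24 h and 1, Asns, fell, against 32.4% of all genes rising and 32.0% falling. From 2i/LIF, 16 rose and 2, Asns and Ddit3, fell, against 29.2% and 29.6%. The median exit effect was 1.28 from serum/LIF+2i and 0.33 from 2i/LIF on the log2 scale. The median interaction was 0.90, with an error of 0.19 from refits that each left out 1 library. Before exit 5 members were higher in serum/LIF+2i and 7 lower, against 14.6% and 18.4% of all tested genes. At 24 h all 27 were higher there, against 14.1%. Over the 16 alternative settings the positive calls ran from 21 to 23 and the negative calls stayed at 0.

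Among the transcription factors, Ddit3 (Entrez 13198; chromosome 10, 127290793 to 127296291, GRCm38.p6), which encodes CHOP, a factor of prolonged stress, had the largest interaction. Its 2 libraries from serum/LIF+2i stood at 10.4 and 10.7 CPM at 0 h and 58.1 and 58.2 CPM at 24 h, and those from 2i/LIF at 13.3 and 14.9 CPM at 0 h and 7.36 and 11.5 CPM at 24 h. The 24 h libraries from serum/LIF+2i thus lay above all 6 others, which ran from 7.36 to 14.9 CPM. The interaction was 3.05 ± 0.24 (SE) on the log2 scale, with an adjusted p of 3.1e-17, made of an exit effect of 2.46 ± 0.13 from serum/LIF+2i and of -0.59 ± 0.19 from 2i/LIF. Exons of Ddit3 overlap those of Mars on the other strand, and whether the counting used strand is not given in the sources used here. Mars itself, a tRNA synthetase, had an interaction of 0.07 ± 0.06 (adjusted p 0.45).

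Atf4 itself moved less at the level of its mRNA. It stood at 292 and 283 CPM at 0 h and 343 and 357 CPM at 24 h from 2i/LIF, and at 249 and 254 CPM at 0 h and 479.8 and 488 CPM at 24 h from serum/LIF+2i. The groups did not overlap at either time, and serum/LIF+2i went from the lower to the higher of the 2 media. The interaction was 0.66 ± 0.06 with an adjusted p of 4.4e-19. Of its partners, Atf3 had an interaction of 1.66 ± 0.48, Atf5, whose exons overlap those of Nup62, of 1.25 ± 0.15, and Cebpg of 0.90 ± 0.11, all called. Cebpb, at 11.3 and 10.8 CPM in serum/LIF+2i at 24 h and 2.92 and 2.13 CPM in 2i/LIF, did not pass (interaction 1.56 ± 0.62, adjusted p 0.057).

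Trib3 encodes a pseudokinase that ATF4 and CHOP induce and that restrains them in turn. From 2i/LIF it stood at 45.2 and 47.5 CPM at 0 h and at 53.6 and 58.4 CPM at 24 h, and from serum/LIF+2i at 37.2 and 35.5 CPM at 0 h and 189 and 184 CPM at 24 h. Only the 24 h libraries from serum/LIF+2i exceeded 60 CPM among the 8. The interaction was 2.09 ± 0.11 with an adjusted p of 2.7e-34, and its 95% interval ran from 1.87 to 2.31. Chac1, which degrades glutathione, went from 8.79 and 11.2 to 33.7 and 37.7 CPM from 2i/LIF and from 6.46 and 9.11 to 106 and 105 CPM from serum/LIF+2i. It rose in both, and its interaction was 1.94 ± 0.21. Other regulators with a called positive interaction were Nupr1 (1.41 ± 0.16), the mTORC1 inhibitors Ddit4 (1.65 ± 0.17) and Sesn2 (0.62 ± 0.07), and Ppp1r15a (1.10 ± 0.13), the phosphatase subunit that reverses eIF2alpha phosphorylation. Members beyond the 6 that the naming rule takes from each list were picked after their values were seen, here and in the paragraphs that follow.

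Herpud1, an ER membrane protein of protein disposal that ATF4 and the unfolded protein response both control, stood at 19.5 and 17.6 CPM at 0 h and 119.8 and 122 CPM at 24 h from serum/LIF+2i. From 2i/LIF its libraries read 21.4 and 18.7 CPM at 0 h and 29.7 and 31.8 CPM at 24 h. The interaction was 2.08 ± 0.16 with an adjusted p of 2.9e-22. Enzymes of serine and one-carbon metabolism differed less, with 0.70 ± 0.06 for Shmt2, 0.79 ± 0.07 for Mthfd2, 0.65 ± 0.11 for Psph, whose exons overlap those of Cct6a, 0.37 ± 0.12 for Phgdh and 0.22 ± 0.05 for Psat1, all called. Asns, asparagine synthetase and a much used ATF4 reporter, was the member that fell in both media. It went from 1269 and 1266 to 469.9 and 469 CPM from 2i/LIF and from 1592 and 1634 to 549.9 and 586 CPM from serum/LIF+2i, and its interaction of -0.07 ± 0.05 did not pass (adjusted p 0.35; 95% interval -0.18 to 0.03). The secreted glycoprotein Stc2 (2.16 ± 0.27) and the lipoprotein receptor Vldlr (2.75 ± 0.30) had called positive interactions, whereas Fgf21 did not pass and was at 0 in serum/LIF+2i at 0 h.

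Of the 3 times sampled, the list's median was largest at 24 h. The same contrast at 12 h had a median of 0.29 with 6 positive and 2 negative calls among the 27 members (9.20% of all genes called), and at 40 h a median of 0.41 with 18 positive and 0 negative calls (27.6% of all genes called). Over all genes, 4.80% had a positive call at 12 h and 14.8% at 40 h. All 3 contrasts share the 0 h libraries, so their values are set side by side without a test of their difference. Trib3 from 2i/LIF stood at 114 and 121 CPM at 40 h, and from serum/LIF+2i at 201 and 194 CPM. Atf4 was at 512 and 518 CPM and 524 and 516 CPM in the 2 media at 40 h.

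**Figure D3:**
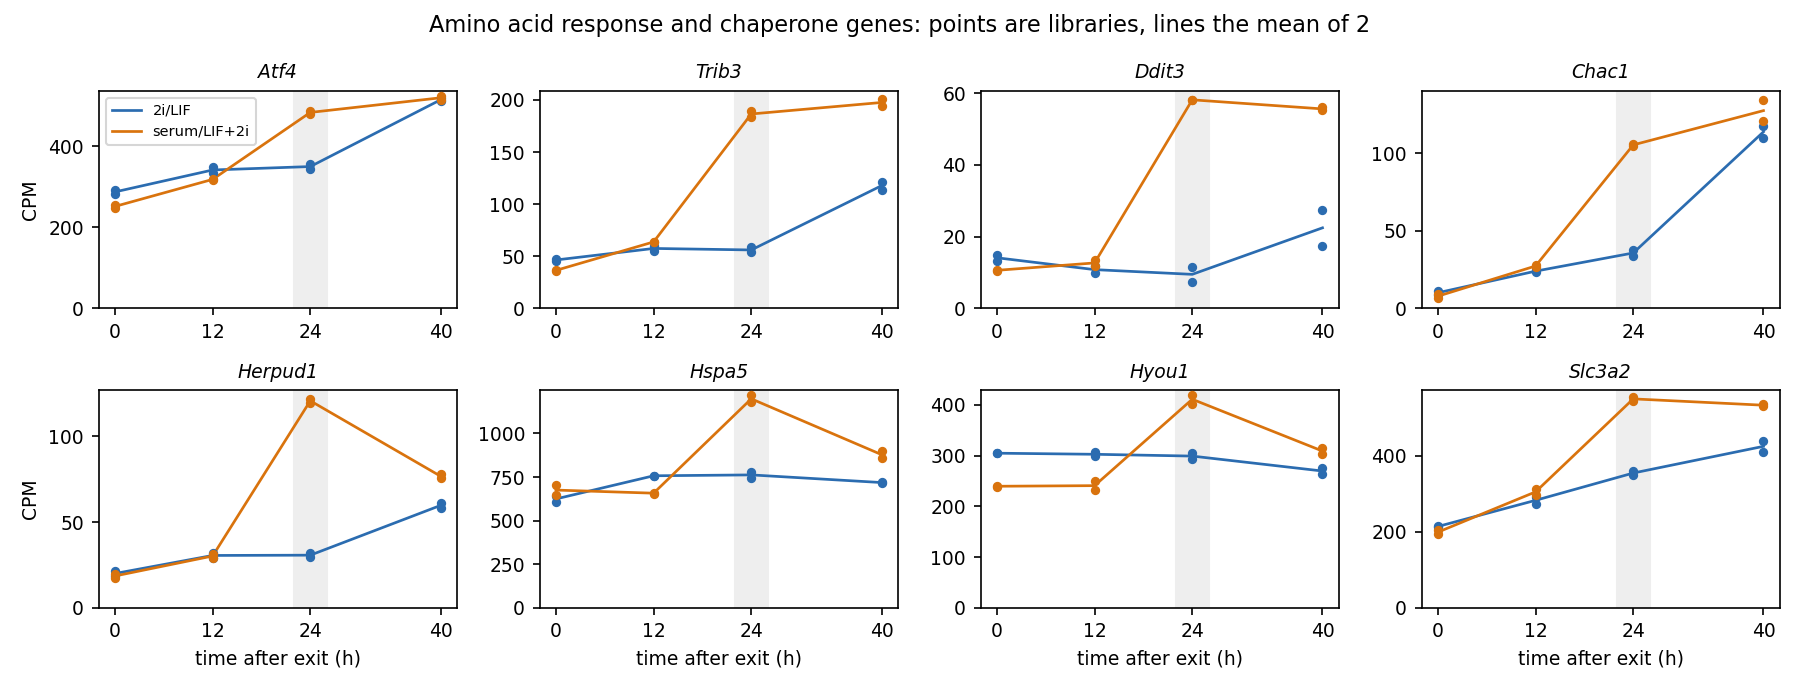
CPM of 8 genes of the amino acid response, the ER chaperones and amino acid transport by time after exit (h), from 2i/LIF (blue) and serum/LIF+2i (orange). Points are libraries, lines join the means of 2, and the grey band marks 24 h. Trib3 from serum/LIF+2i stood at 189 and 184 CPM at 24 h against 53.6 and 58.4 CPM from 2i/LIF. At 12 h the values were 63.9 and 63.4 CPM and 60.0 and 54.8 CPM.

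The 18 ER chaperones and folding factors had smaller differences in the same direction. From serum/LIF+2i 14 rose and 3 fell over 24 h, against 32.4% and 32.0% of all tested genes. From 2i/LIF 4 rose and 6 fell, near the shares of all genes, 29.2% and 29.6%. The median exit effects were 0.76 and -0.07. The median interaction was 0.54, with an error of 0.03 from refits that each left out 1 library. At 24 h 16 of 18 were higher in serum/LIF+2i and 0 lower, against 14.1% and 17.0% of all tested genes. The contrast at 12 h had the opposite sign, with a median of -0.19 and 7 negative and 0 positive calls (4.40% of all genes negative). At 40 h there were 8 positive calls and 1 negative, against 14.8% and 12.8% of all genes.

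Hspa5 encodes BiP, the main HSP70 chaperone of the ER. It read 608 and 641 CPM at 0 h and 744 and 781 CPM at 24 h from 2i/LIF, and 704 and 647 CPM at 0 h and 1179 and 1218 CPM at 24 h from serum/LIF+2i. Both 24 h libraries from serum/LIF+2i lay above the other 6. The interaction was 0.54 ± 0.05 (adjusted p 2.7e-16). Hyou1, the nucleotide exchange factor of BiP, went from 239 and 240.4 to 402 and 419.8 CPM from serum/LIF+2i and from 304 and 305 to 294 and 304 CPM from 2i/LIF, where no exit effect was called. Its interaction was 0.81 ± 0.06. Manf, a secreted ER stress factor, had one of 0.76 ± 0.09, and the disposal components Sel1l and Syvn1 had 0.94 ± 0.10 and 1.08 ± 0.13. Exons of Manf and Syvn1 overlap those of other counted genes. Xbp1 rose in both media and its interaction was 0.54 ± 0.10. Calr, Pdia3, Pdia6 and Dnajb11 did not pass, and their values lay between -0.04 ± 0.06 and 0.22 ± 0.10. Derl3, an ER protein of the same disposal route that is in no list, stood at 0.441 and 1.32 CPM at 0 h and 16.5 and 17.9 CPM at 24 h from serum/LIF+2i and at 1.72 and 1.67 CPM at 0 h and 2.78 and 3.95 CPM at 24 h from 2i/LIF, an interaction of 3.29 ± 0.59.

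Promoters of these genes are printed because ATF4 and the ER stress factors act through known short elements, and because the members moved together. ATF4 with a C/EBP partner binds the C/EBP-ATF response element, searched here as TGATGNAA on both strands. The ER stress response element was searched as CCAAT and CCACG with 9 bases of any kind between them, and its variant as ATTGG and CCACG with 1 base between them, also on both strands. Each gene was given the RefSeq window of GRCm38.p6 from 250 bases before to 50 bases after its annotated start. Of the 26 amino acid response genes with a window, 9 (34.6%) held TGATGNAA, against 2.70% of the 10940 tested genes with one. Of 16 chaperone genes, 8 (50.0%) held the ER stress element, against 0.201%, and 1 held the variant, against 0.0731%. A match describes the letters in this window and says nothing of binding. Both lists were chosen from general knowledge of these responses, with earlier results of these data known. The excess over all genes is therefore no result of the expression measured here.

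The sequences give the 250 bases before the start, 5′ to 3′ on the gene's strand, with the matched elements in capitals. They come from chr2:119350992-119351241 (plus strand) for Chac1, chr1:191183334-191183583 (minus strand) for Atf3, chr8:94386179-94386428 (plus strand) for Herpud1 and chr2:34771840-34772089 (plus strand) for Hspa5.
Chac1: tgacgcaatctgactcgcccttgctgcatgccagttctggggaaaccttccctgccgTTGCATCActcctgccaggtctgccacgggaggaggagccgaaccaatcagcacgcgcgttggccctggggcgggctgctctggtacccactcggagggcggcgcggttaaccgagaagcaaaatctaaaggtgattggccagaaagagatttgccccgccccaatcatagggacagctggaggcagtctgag
Atf3: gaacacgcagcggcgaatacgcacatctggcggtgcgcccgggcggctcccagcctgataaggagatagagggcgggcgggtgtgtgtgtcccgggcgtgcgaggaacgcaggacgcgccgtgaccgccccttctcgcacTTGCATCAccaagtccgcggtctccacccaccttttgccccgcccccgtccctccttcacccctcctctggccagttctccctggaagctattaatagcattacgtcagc
Herpud1: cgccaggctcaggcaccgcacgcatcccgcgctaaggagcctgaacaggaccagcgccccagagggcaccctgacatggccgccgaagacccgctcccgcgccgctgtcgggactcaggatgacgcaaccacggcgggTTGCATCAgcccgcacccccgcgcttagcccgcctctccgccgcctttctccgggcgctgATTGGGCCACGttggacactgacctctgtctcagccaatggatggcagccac
Hspa5: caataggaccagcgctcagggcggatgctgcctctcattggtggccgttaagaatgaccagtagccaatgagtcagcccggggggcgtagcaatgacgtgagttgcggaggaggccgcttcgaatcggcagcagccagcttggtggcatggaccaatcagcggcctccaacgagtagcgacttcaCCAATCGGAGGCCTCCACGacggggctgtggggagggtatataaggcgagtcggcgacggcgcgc
In Chac1, Atf3 and Herpud1 the capitals TTGCATCA are the reverse complement of TGATGNAA. Its first base lies at position -193, -110 and -112 relative to the start. Herpud1 also holds ATTGGGCCACG from -52, and Hspa5 holds the full ER stress element from -65.

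Within the lists, members with and without an element were compared by their medians alone. Of the 9 amino acid response genes with TGATGNAA, 6 were called positive, a lower share than the 22 of 27 in the whole list. Their median interaction was 1.94, against 0.79 in the 17 without it. The share called and the median thus went opposite ways. Asns, Pycr1 and Fgf21 were the 3 holders that did not pass. Among the chaperones, the 8 holders had a median of 0.42 and the 8 others one of 0.53, and Calr and Pdia6 held the element without a called interaction. A sterol element searched as TCACNCCAC on both strands was found in 1 of 16 cholesterol synthesis genes, Hmgcs1, against 1.47% of all.

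Carriers that bring amino acids across the plasma membrane were tested in 27 of 29 list members. They had 12 positive and 4 negative calls, against 9.77% and 11.0% of all tested genes, and a median of 0.39. The share of negative calls lay near that of all genes. The subunit Slc3a2, which forms the exchangers of large and of cationic amino acids with a light chain, stood at 214 and 213 CPM at 0 h and 359 and 349 CPM at 24 h from 2i/LIF, and at 194 and 204 CPM at 0 h and 554 and 544 CPM at 24 h from serum/LIF+2i. It rose in both media and more from serum/LIF+2i, with an interaction of 0.74 ± 0.06 (adjusted p 2.7e-20). Its light chains Slc7a5 (leucine and other large neutral amino acids), Slc7a11 (cystine) and Slc7a7 (whose exons overlap those of Oxa1l) had 0.40 ± 0.06, 2.20 ± 0.34 and 0.97 ± 0.14. Another of its light chains, Slc7a6, was negative (-0.70 ± 0.12).

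The arginine and lysine carrier Slc7a1 moved in opposite directions. It fell from 270.0 and 258 to 199 and 184 CPM from 2i/LIF and rose from 266 and 264 to 387 and 391 CPM from serum/LIF+2i, so that media with overlapping levels before exit were apart at 24 h. The interaction was 1.01 ± 0.09 (adjusted p 1.1e-08). Slc1a4, a carrier of alanine, serine and cysteine, rose to 106 and 114 CPM from serum/LIF+2i and to 68.2 and 68.4 CPM from 2i/LIF, an interaction of 1.38 ± 0.11. The aromatic amino acid carrier Slc16a10 had the largest value of the called transporters, 3.01 ± 0.41. It fell from 10.7 and 8.81 to 2.08 and 0.912 CPM from 2i/LIF and was at 3.38 and 3.67 CPM at 0 h and 3.87 and 5.09 CPM at 24 h from serum/LIF+2i, where no change was called. Slc7a3 and Slc38a1 rose in both media, and their interactions of 0.15 ± 0.06 and 0.12 ± 0.06 did not pass. The 4 negative calls were Slc6a6, Slc6a8, Slc6a15 and Slc7a6.

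Of 22 cytosolic tRNA synthetases and their cofactors, 10 had a positive and 2 a negative call, against 9.77% and 11.0% of all tested genes. The negative count lay near that share, and the median was 0.16. Nars, for asparagine, had the largest called value at 0.50 ± 0.05, and Sars, Lars and Aars, for serine, leucine and alanine, had 0.46 ± 0.06, 0.41 ± 0.05 and 0.33 ± 0.05. Nars stood at 888 and 927 CPM in serum/LIF+2i at 24 h, above all other libraries of the contrast, which lay at 497 and 501 CPM at 0 h and 547 and 573 CPM at 24 h in 2i/LIF and 571 and 576 CPM in serum/LIF+2i at 0 h. Mars and Tars did not pass, and Qars and Kars were the negative calls.

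Glycolysis went the other way. The enzymes of this pathway turn glucose into pyruvate and lactate. From serum/LIF+2i 15 of 22 members fell over 24 h and 4 rose, against 32.0% and 32.4% of all tested genes. From 2i/LIF 12 rose and 5 fell, against 29.2% and 29.6%. The median exit effects were -0.32 and 0.19. The median interaction was -0.60, with an error of 0.07 from refits that each left out 1 library. Before exit 12 members were higher in serum/LIF+2i and 3 lower, against 14.6% and 18.4% of all tested genes. At 24 h 2 were higher and 13 lower, against 14.1% and 17.0%. Negative calls numbered 15 to 17 over the alternative settings.

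Ldha (Entrez 16828; chromosome 7, 46842274 to 46855627), which converts pyruvate to lactate, stood at 1268 and 1173 CPM at 0 h in serum/LIF+2i and at 645 and 648 CPM at 24 h. In 2i/LIF it stood at 439.6 and 454 CPM at 0 h and 512 and 520.5 CPM at 24 h. The groups did not overlap, and the gap between the media shrank from 1.45 at 0 h to 0.32 at 24 h on the log2 scale. The interaction was -1.13 ± 0.05 with an adjusted p of 4.5e-38. Pfkl, the liver form of phosphofructokinase, had 229 and 205 CPM at 0 h in serum/LIF+2i against 114 and 106 CPM in 2i/LIF, and at 24 h 174 and 173 against 172 and 176 CPM, values that overlap. Its interaction was -0.98 ± 0.07.

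Tpi1, triosephosphate isomerase, crossed over. It fell from 514 and 505 to 267 and 266 CPM from serum/LIF+2i and read 399.8 and 418 CPM at 0 h and 409.8 and 383 CPM at 24 h from 2i/LIF, where no exit effect was called, an interaction of -0.89 ± 0.06. The glucose carrier Slc2a3 fell in both media, from 2100.0 and 2174 to 430.5 and 432 CPM and from 1872 and 1879.9 to 601 and 593 CPM, with an interaction of -0.66 ± 0.05. Aldoa, Eno1, Pkm, Pgk1, Pgam1, Slc2a1 and the lactate exporter Slc16a3 also had called negative values, from -0.58 ± 0.05 for Pkm to -1.07 ± 0.15 for Slc16a3. The single positive call was Pdk1 (0.25 ± 0.09), a kinase that restrains mitochondrial use of pyruvate, and DESeq2 did not call it. Hk2, Pfkm and Pdk3 had values of -0.03 ± 0.06, 0.20 ± 0.09 and 0.02 ± 0.13 and did not pass, and exons of Pfkm overlap those of Senp1. Gapdh, which has many near-identical pseudogene copies, read from 15.8 to 33.5 CPM, so its count is uncertain, and it did not pass (interaction -1.02 ± 0.43, adjusted p 0.15).

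At 40 h the contrast had 0 positive and 15 negative calls in this list (12.8% of all genes negative) with a median of -0.54. At 12 h it had 0 and 7 (4.40% of all genes negative) with a median of -0.13. Ldha from 2i/LIF stood at 1395 and 1289.8 CPM at 40 h, above the 968 and 964 CPM from serum/LIF+2i. Oxidative phosphorylation had 1 positive and 6 negative calls among 21 subunits, against 9.77% and 11.0% of all tested genes, and a median of -0.16. Cox5a (-0.42 ± 0.06), Ndufa4 (-0.37 ± 0.07), Atp5c1 (-0.26 ± 0.06) and Cox4i1 (-0.19 ± 0.06) were among the negative ones, and Atp5b and Atp5a1 did not pass. DESeq2 gave 0 positive and 3 negative calls, and Cox4i1 was not among them.

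**Figure D4:**
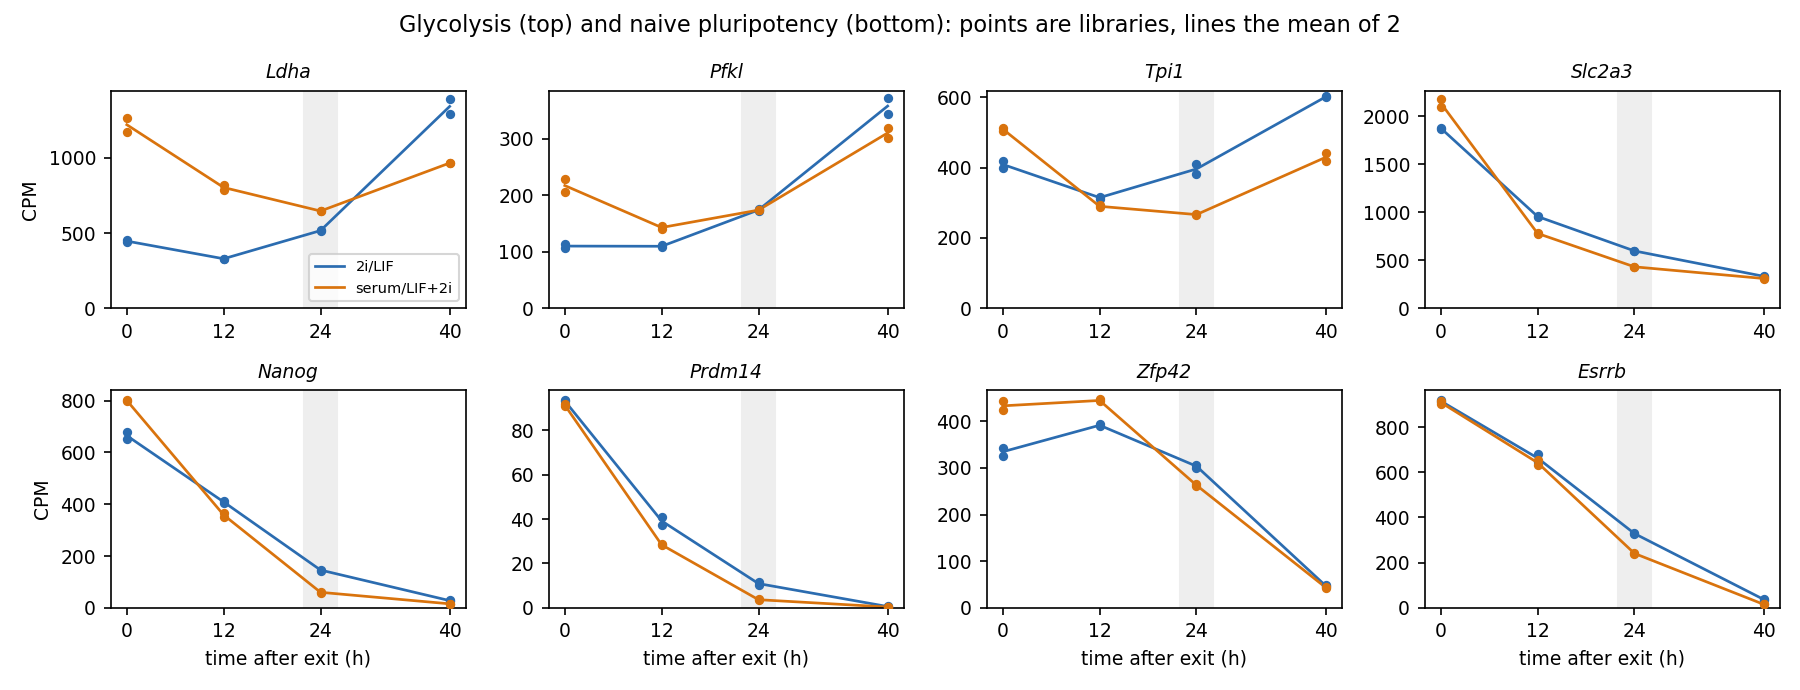
CPM of 4 glycolysis genes (top) and 4 naive pluripotency genes (bottom) by time after exit (h), from 2i/LIF (blue) and serum/LIF+2i (orange). Points are libraries, lines join the means of 2, and the grey band marks 24 h. Ldha, Pfkl and Tpi1 were higher in serum/LIF+2i at 0 h, and Nanog was at 61.3 and 58.7 CPM from serum/LIF+2i at 24 h against 148 and 144 CPM from 2i/LIF.

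Naive pluripotency genes fell further from serum/LIF+2i. In each medium 14 of 17 members fell and 3 rose over 24 h. Over all tested genes 32.0% fell and 32.4% rose from serum/LIF+2i, and 29.6% and 29.2% from 2i/LIF. The median exit effects were -2.28 from serum/LIF+2i and -1.53 from 2i/LIF, and the median interaction was -0.44. At 24 h 12 members were lower in serum/LIF+2i and 1 was higher, against 17.0% and 14.1% of all tested genes. At 0 h 9 were higher and 3 lower, against 14.6% and 18.4%. The summed ES identity markers, 7 of which are negative calls here, fell to 1818 CPM in both libraries from serum/LIF+2i and to 2017 and 2020 CPM from 2i/LIF. In bulk RNA, fewer naive cells and less RNA per cell cannot be told apart.

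Nanog (Entrez 71950; chromosome 6, 122707489 to 122714633), a homeodomain factor that sustains the naive network, stood at 802 and 800.3 CPM at 0 h and 61.3 and 58.7 CPM at 24 h from serum/LIF+2i. From 2i/LIF it stood at 650.2 and 679.7 CPM at 0 h and 148 and 144 CPM at 24 h. Its libraries from serum/LIF+2i were the highest of the 8 before exit and the lowest after it. The interaction was -1.55 ± 0.06 with an adjusted p of 4.5e-43, made of exit effects of -3.74 ± 0.05 and -2.19 ± 0.04. Prdm14, a repressor that keeps DNA methylation low, went from 91.7 and 90.9 to 3.76 and 3.57 CPM and from 93.4 and 93.0 to 10.1 and 11.7 CPM in the same order, an interaction of -1.54 ± 0.21.

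Smaller negative values were seen for Tcl1 (-1.16 ± 0.15), Nr5a2 (-1.03 ± 0.13), Klf2 (-0.65 ± 0.09), Zfp42 (-0.58 ± 0.06), which encodes REX1, and Esrrb (-0.44 ± 0.05). Zfp42 stood at 443 and 424 CPM at 0 h and 265 and 261 CPM at 24 h from serum/LIF+2i and at 326 and 344 CPM at 0 h and 307 and 300.3 CPM at 24 h from 2i/LIF. Klf5 was the positive call, since it fell less from serum/LIF+2i (0.36 ± 0.10). Pou5f1, which encodes OCT4 and is kept in the formative state, rose slightly in both media and had an interaction of 0.03 ± 0.05 with a 95% interval of -0.07 to 0.12. Tet2 did not pass (-0.16 ± 0.12). At 40 h the list had 4 positive and 5 negative calls, against 14.8% and 12.8% of all genes, and a median of -0.05.

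Formative and primed genes did not move as a block. All of the 19 but Cdh2 rose in each medium, with medians of 3.63 from serum/LIF+2i and 3.68 from 2i/LIF. Over all tested genes 32.4% and 29.2% rose. Of the interactions 5 were positive and 6 negative, against 9.77% and 11.0% of all tested genes. The list's median of 0.50 went from -0.23 to 0.67 when single libraries were left out, so it gives no direction. Dnmt3a, a de novo DNA methyltransferase, rose from 54.8 and 54.5 to 1225 and 1208 CPM and from 76.9 and 68.5 to 930.2 and 935 CPM, an interaction of 0.79 ± 0.07. Its paralog Dnmt3b went the other way, from 167 and 154 to 999.6 and 998 CPM and from 134 and 123 to 1106 and 1100.4 CPM (-0.47 ± 0.06). Lef1 (1.11 ± 0.16), Zic2 (1.04 ± 0.21) and Etv4 (0.78 ± 0.18) were positive, and Utf1 (-1.13 ± 0.12), Foxd3 (-0.86 ± 0.18) and Otx2 (-1.54 ± 0.56) negative. Utf1 started at 45.7 and 46.1 CPM from serum/LIF+2i and 20.5 and 19.4 CPM from 2i/LIF and ended at 458 and 460.3 CPM and 445 and 427 CPM. Pou3f1 and Grhl2 did not pass.

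Dnmt3l is the catalytically inactive partner of the de novo methyltransferases. Its libraries stood at 8.62 and 6.38 CPM at 0 h and 419 and 426 CPM at 24 h from 2i/LIF, and at 184 and 153 CPM at 0 h and 810.1 and 820.4 CPM at 24 h from serum/LIF+2i. It was higher in serum/LIF+2i at both times, and the gap narrowed from 4.50 to 0.95 on the log2 scale. The interaction was -3.55 ± 0.24 (adjusted p 5.5e-06). Of the other 11 enzymes and readers of DNA methylation, Zfp57 and Trim28 were negative (-0.48 ± 0.05 and -0.31 ± 0.05), and Tet1, Uhrf1 and 6 more did not pass.

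Genes of sterol and fatty acid synthesis started lower in serum/LIF+2i and differed less after exit. SREBP transcription factors activate them when membrane sterol is low. At 0 h 20 of 24 cholesterol genes were lower in serum/LIF+2i and 0 higher, against 18.4% and 14.6% of all tested genes. At 24 h still 18 were lower, against 17.0%, and the median gap went from -0.54 to -0.28. The interaction was positive in 12 and negative in 1, against 9.77% and 11.0% of all tested genes, with a median of 0.26. Cyp51, lanosterol demethylase, stood at 96.4 and 101 CPM at 0 h and 237 and 239 CPM at 24 h from serum/LIF+2i and at 184 and 189 CPM at 0 h and 268 and 255 CPM at 24 h from 2i/LIF. It was lower in serum/LIF+2i at both times, by less at 24 h, with an interaction of 0.78 ± 0.07. Exons of Cyp51 overlap those of Akap9.

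Dhcr7, the reductase of the last step of cholesterol synthesis, had an interaction of 0.58 ± 0.08. Hmgcs1 and Sqle rose in both media and did not pass (0.09 ± 0.05 and 0.04 ± 0.06). Among 14 fatty acid genes 9 were positive and 1 negative, against 9.77% and 11.0% of all tested genes, with a median of 0.25. The desaturase Scd1 stood from 2i/LIF at 561 and 561 CPM at 0 h and 537 and 536 CPM at 24 h with no called exit effect, and rose from 261 and 294 to 500.0 and 491 CPM from serum/LIF+2i (0.90 ± 0.05). Scd2 (0.70 ± 0.05), Fads2 (0.65 ± 0.08) and Fads1 (0.56 ± 0.07) were positive as well, and Elovl5 was the negative call (-0.39 ± 0.08). The cholesterol list had 12 positive calls at 12 h and 17 at 40 h, while over all genes positive calls went from 4.80% to 14.8%.

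**Figure D5:**
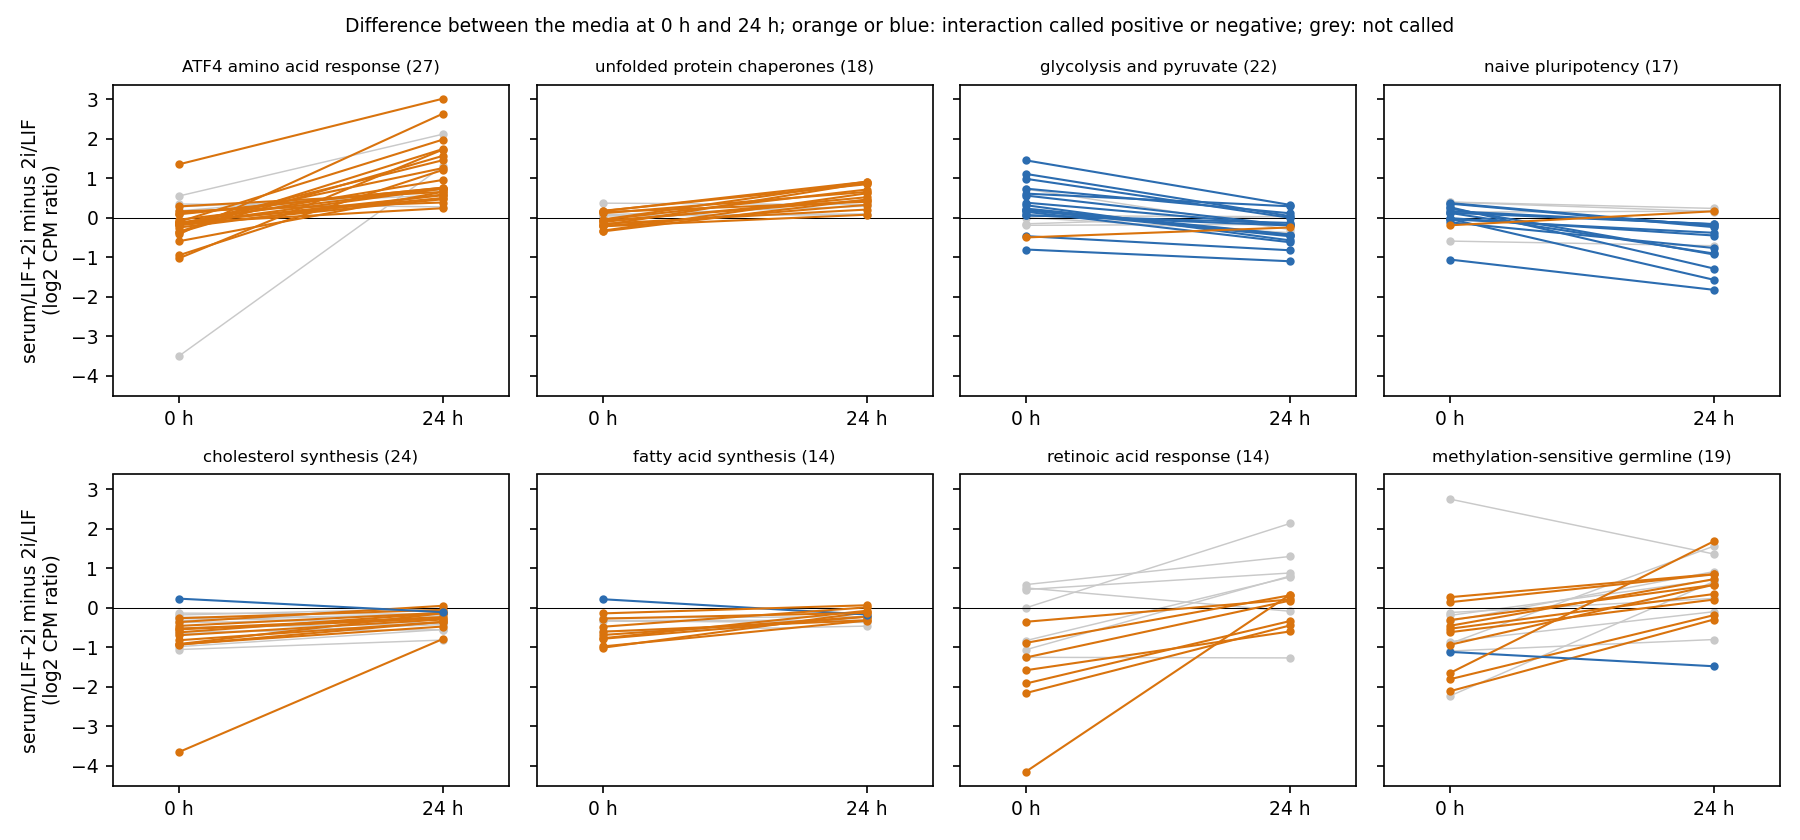
Difference between the media (log2 of serum/LIF+2i over 2i/LIF) at 0 h and 24 h in 8 gene lists, 1 line per gene with the number of tested members in brackets. Orange and blue lines are genes with a called positive or negative interaction and grey lines the rest. Amino acid response lines spread above 0 at 24 h, cholesterol and fatty acid lines start below 0 and approach it, and many glycolysis lines cross from above 0 to below it.

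At 0 h, 8 of 14 tested genes of the retinoic acid response and 4 of 19 germline genes were lower in serum/LIF+2i, and 0 and 1 were higher. Over all tested genes 18.4% were lower and 14.6% higher, so the germline count of lower genes lay near the share of all genes. Retinoic acid acts through nuclear receptors such as RARG, and many germline genes are held silent by promoter methylation. The retinoic acid list had 7 positive and 0 negative calls among 14 tested members, against 9.77% and 11.0% of all tested genes. Its median was 1.32. Positive calls numbered 5 by DESeq2 and 4 when replicate 1 of the 0 h libraries from serum/LIF+2i was left out. Stra8 (Entrez 20899; chromosome 6, 34920163 to 34939344), a retinoid-induced gene needed for meiosis, stood at 0.882 and 1.47 CPM at 0 h and 39.0 and 51.6 CPM at 24 h from serum/LIF+2i, and at 22.2 and 19.9 CPM at 0 h and 34.0 and 38.3 CPM at 24 h from 2i/LIF. The 0 h libraries from serum/LIF+2i were far below the other 6. The interaction was 4.48 ± 0.33 (adjusted p 1.6e-14).

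The receptor Rarg rose in both media, from 27.3 and 28.5 to 435 and 428 CPM and from 64.3 and 69.0 to 381 and 380.2 CPM, with an interaction of 1.44 ± 0.08. Aldh1a2, which makes retinoic acid, fell in both and fell less from serum/LIF+2i (0.98 ± 0.35). Crabp1 and Tgm2 did not pass. In the germline list 10 of 19 were positive and 1 negative, against 9.77% and 11.0% of all tested genes, with a median of 0.89. The positive calls fell to 5 under DESeq2 and to 6 when either replicate 2 of the 0 h libraries from 2i/LIF or replicate 1 of those from serum/LIF+2i was left out. Dazl, an RNA-binding protein of germ cells, fell slightly from 53.1 and 55.6 to 46.4 and 48.2 CPM from 2i/LIF and rose from 14.5 and 10.6 to 41.5 and 35.6 CPM from serum/LIF+2i (1.82 ± 0.15). Tuba3a rose from serum/LIF+2i and had no called exit effect from 2i/LIF (1.62 ± 0.16), Syce1 had 1.18 ± 0.30, and Rhox5, which rose in both media, was the negative call (-0.36 ± 0.10), which it lost in 2 of the fits without 1 library. Summed markers of two-cell-like cells, rare cells in ES cultures that express genes of the early embryo, went from between 3.80 and 7.41 CPM to between 20.5 and 22.3 CPM from 2i/LIF and from between 0.881 and 1.47 CPM to between 10.7 and 10.9 CPM from serum/LIF+2i, with 1 of 7 tested markers called positive. Their part in the germline values was not tested.

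Targets of serum response factor, which acts with actin-sensing cofactors, had 1 positive and 9 negative calls among 16 tested members. Over all tested genes these shares were 9.77% and 11.0%, and the list's median was -0.43. At 0 h 7 members were higher in serum/LIF+2i and 0 lower, against 14.6% and 18.4% of all tested genes. Flna, filamin A, stood at 819.7 and 819.6 CPM at 0 h and 731 and 736 CPM at 24 h from serum/LIF+2i and at 585 and 566 CPM at 0 h and 807 and 786 CPM at 24 h from 2i/LIF. It fell slightly in the first and rose in the second (-0.63 ± 0.05). Actb (-0.35 ± 0.05), Tpm1 (-0.70 ± 0.11) and Cnn2 (-1.46 ± 0.21) were negative too. Filip1l, at 2.85 CPM or less in each of the 8 libraries, was the positive call.

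Matrix genes had 2 positive and 11 negative calls among 20 collagens, laminins, integrins and related proteins, against 9.77% and 11.0% of all tested genes. Their median was -0.42. Nid1, a basement membrane linker, fell from 612 and 605 to 86.3 and 82.4 CPM from serum/LIF+2i and from 592 and 616 to 155 and 153 CPM from 2i/LIF (-0.88 ± 0.06). Nid2 (-0.66 ± 0.05), whose exons overlap those of Rtraf, Lama1 (-0.88 ± 0.21) and Lama5 (-0.50 ± 0.06) also fell further from serum/LIF+2i. Col18a1 rose in both media and less from serum/LIF+2i (-0.91 ± 0.06), and the fibronectin receptor subunit Itga5 was positive (1.00 ± 0.09). Fn1 itself did not pass (-0.11 ± 0.05). Metallothioneins and antioxidant genes had 3 positive and 10 negative calls among 17, with a median of -0.28, set against the same shares of all genes. Mt1 stood at 180.3 and 189.9 CPM at 24 h from serum/LIF+2i, down from 444 and 391 CPM, and at 524 and 529 CPM from 2i/LIF, down from 640.2 and 631 CPM (-0.90 ± 0.08). Hmox1, heme oxygenase, was positive (0.73 ± 0.09), and Tfrc, Mt2 and Nqo1 were negative (-0.67 ± 0.06, -0.64 ± 0.07 and -0.48 ± 0.07). Summed fibroblast markers, mostly Vim, went from between 234 and 255 CPM to between 151 and 168 CPM from 2i/LIF and from between 152 and 164 CPM to between 88.1 and 93.8 CPM from serum/LIF+2i. Of the 8 markers 4 or 5 were at or under 3 counts in every group and 1 of 5 tested was called negative, and their part in the cytoskeletal and matrix values was not tested.

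Readouts of the withdrawn factors are read against the 20.8% of all tested genes with a call. The ERK list had 3 positive and 0 negative calls among 13 (23.1%), namely Dusp6 (1.47 ± 0.26), Myc (0.65 ± 0.22) and Spred2 (0.47 ± 0.10), and Dusp6 ended at 89.3 and 90.2 CPM and 90.9 and 86.9 CPM, values that overlap, from a lower start in serum/LIF+2i. Myc lost its call under DESeq2 and in 3 of the fits without 1 library. The Wnt list had 1 positive and 2 negative calls among 9 (33.3%), and Axin2 did not pass (0.12 ± 0.15). For LIF and STAT3 there were 1 and 1 among 10. The positive one, Stat3 (0.35 ± 0.11), lost its call under DESeq2 and in 4 of the fits without 1 library. BMP and Id genes had 2 positive and 3 negative among 11 (45.5%), of which Bambi and Smad1 lost their call under DESeq2 and without some single libraries, while Id2 was negative (-1.69 ± 0.37). The early lineage list had 1 positive (Lefty1, 1.00 ± 0.19) and 3 negative calls (Nes, Sox1 and Lefty2) among 15 (26.7%). Lefty2 lost its call in 9 of the 16 settings, DESeq2 and both other scalings included, and Sox1 in 1. Sp5 was at 0 CPM in both media at 24 h.

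The remaining lists are given by their counts, to be read against the 20.8% of all tested genes with a call. The share called was 20% for macropinocytosis regulators, which is near that of all genes. It was 28.6% for epithelial junction genes, 30.8% for p53 targets, 35.5% for the lysosome list and 9.52% for ribosomal proteins. The lysosome list had 7 positive and 4 negative calls among 31, or 4 and 3 by DESeq2, led by Cln3 (1.25 ± 0.15), whose exons overlap those of Apobr. Macropinocytosis regulators had 1 and 4 among 25, and the negative count fell to 1 to 3 when single libraries were left out. Epithelial junction genes had 3 and 3 among 21, with Epcam positive (0.52 ± 0.08) and Cldn6 negative (-1.15 ± 0.22), and p53 targets 3 and 1 among 13, with -0.31 ± 0.08 for Cdkn1a. The 3 positive p53 calls became 1 under DESeq2 and 1 to 3 without single libraries, and Mdm2 and Plk2 were among those lost. The 2 ribosomal protein calls, Rpl23 and Rps2, were lost under DESeq2, and many of these genes have near-identical pseudogenes, so their counts are uncertain.

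Of the genes with a call, a level averaging 5 CPM or more and over 3 counts on average per group, the largest positive interaction was that of Trim66, a chromatin-binding protein (Entrez 330627; chromosome 7, 109449001 to 109516759). It stood at 0.441 and 0.881 CPM at 0 h and 33.4 and 36.2 CPM at 24 h from serum/LIF+2i, and at 1.21 and 1.67 CPM at 0 h and 2.64 and 3.04 CPM at 24 h from 2i/LIF, so that only the 24 h libraries from serum/LIF+2i exceeded 4 CPM. The interaction was 4.73 ± 0.68 with a 95% interval of 3.38 to 6.08. Stra8 came next, then Itgam, an integrin of myeloid cells, at 3.72 ± 0.48. Ddit3 and Derl3 were also among the 8 largest, as were the ephrin Efnb1 (2.96 ± 0.50) and the calcium-binding protein Calb2 (2.94 ± 0.53). These last 2 fell in both media and less from serum/LIF+2i, where they began lower: Efnb1 went from 3.97 and 5.43 to 1.55 and 2.34 CPM there and from 15.9 and 19.6 to 1.11 and 0.760 CPM from 2i/LIF.

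The most negative value was that of Aire, a transcriptional regulator known from thymic epithelium, at -4.09 ± 0.37. It stood at 14.8 and 10.4 CPM at 0 h and 25.9 and 25.1 CPM at 24 h from serum/LIF+2i, and at 1.03 and 0.456 CPM at 0 h and 24.9 and 26.0 CPM at 24 h from 2i/LIF. Both media ended at overlapping levels. The annotated span of Aire (chromosome 10, 78030022 to 78043610) overlaps that of Dnmt3l (78042287 to 78063622), so the values of both are uncertain, and Dnmt3l had the next most negative value. Eras, an ES cell form of RAS whose exons overlap those of Pcsk1n, had -2.94 ± 0.49. It went from 3.97 and 2.50 to 29.0 and 30.2 CPM from serum/LIF+2i and from 0.689 and 0.456 to 42.1 and 39.4 CPM from 2i/LIF. The costimulatory ligand Icosl had -2.29 ± 0.29. It lies near Dnmt3l on chromosome 10 (78069368 to 78079525), and whether Aire, Dnmt3l and Icosl changed independently was not tested.

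Lrrc31 fell from 31.6 and 42.6 to 0.553 and 0.611 CPM from serum/LIF+2i and from 27.6 and 29.2 to 1.94 and 3.04 CPM from 2i/LIF, an interaction of -2.44 ± 0.48. Podxl, a sialomucin of the apical membrane, rose from 10.9 and 11.2 to 48.2 and 46.0 CPM from 2i/LIF and fell from 36.6 and 41.9 to 30.1 and 33.6 CPM from serum/LIF+2i (-2.39 ± 0.16), so the order of the media was reversed. Mapk8ip2, a JNK scaffold, was also among the 8 most negative (-2.40 ± 0.36).

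Some called genes were at or under 3 counts in every library of 1 group, and their fitted interaction depends on the prior count. On the negative side, Xaf1 went from 41.4 and 41.4 CPM to 0.111 and 0.306 CPM from serum/LIF+2i, at least 130-fold lower (against 3 counts per library), and from 53.8 and 51.3 to 2.22 and 1.82 CPM from 2i/LIF. Gjb5 and Spic were at least 101-fold and 80.2-fold lower from serum/LIF+2i. Prss50 had at most 3 counts per library before exit in both media and was at least 42.7-fold higher from serum/LIF+2i and 52.3-fold higher from 2i/LIF at 24 h. On the positive side, Vrtn, Zfp467, Crabp2 and Irs4 were at the floor in serum/LIF+2i at 0 h and at least 99.7-fold, 37.1-fold, 36.2-fold and 32.1-fold higher at 24 h. Of these 8 genes, Gjb5, Prss50, Spic, Crabp2, Vrtn and Zfp467 lost their call under at least 1 alternative.

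Picked by the naming rule were 10 of the genes among the 258 with opposite exit effects. Fam129a, a stress-induced regulator of translation also called Niban, fell from 139.6 and 139.6 to 75.7 and 83.3 CPM from 2i/LIF and rose from 63.0 and 67.1 to 110.1 and 116 CPM from serum/LIF+2i (1.61 ± 0.10). The order of the media at 0 h, with 2i/LIF higher, was the reverse of that at 24 h. Adgre5 (exons overlap those of Ddx39), the ATP-gated channel P2rx7, Rap1gap2 and Tanc2 had the same orientation. Htra1, a secreted protease, rose from 4.14 and 6.23 to 9.86 and 8.36 CPM from 2i/LIF and fell from 15.9 and 16.9 to 7.41 and 6.42 CPM from serum/LIF+2i (-2.05 ± 0.29). Bok, Cnn2, Dcbld1 and Mapk8ip2 shared that orientation. Each of these 5 was called higher in serum/LIF+2i at 0 h, against 14.6% of all tested genes. In the other orientation all but P2rx7 were called lower there at 0 h, against 18.4%. The genes were picked by exit effects that use these same 0 h libraries, so the gaps at 0 h are no separate result.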

How the data were processed

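RNA of 16 libraries was sequenced, and the authors deposited 1 table of whole-number read counts per gene for all of them, with no normalization, per the file headers. The submitters' processing notes name fastp, STAR, featureCounts and the build mm10, with no versions and no strand setting. All 16 columns matched a library by name and 0 were left unmapped, and 1049 genes without a symbol are not named. Another column of that deposited table, gene length, was not used for a measurement.

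Counts were normalized by TMM and fitted with edgeR 4.0.16 (quasi-likelihood test, robust) in R 4.3.3 with a mean for each of 8 groups of 2, which left 8 residual degrees of freedom. All 16 libraries entered so that the groups share 1 estimate of the spread. Genes passed the filter of filterByExpr at a minimum count of 10 and a minimum total of 15. Adjusted p-values are Benjamini-Hochberg values over 14288 genes, called under 0.05. A standard error is the absolute log2 fold change divided by the square root of the F statistic, intervals are 95%, and CPM uses TMM-scaled totals. Floors of 3 counts and these intervals cover the counting error and the spread between these libraries only. The fits were tested on simulated data. Alternatives were DESeq2 1.42.0, other scalings and filters, a minimum change, a replicate block and leaving out each library. The error of a list's median is a jackknife error, taken from how the median moved between the fits without 1 library.

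The contrast, the gene lists and the naming rule were chosen with earlier results of these data known. The rule named, of the genes with a call, a level averaging 5 CPM or more and over 3 counts on average per group, the 8 largest interactions in each direction, plus 4 per direction among genes at or under 3 counts in each library of a group, 5 per orientation among genes with opposite exit effects, and from each of 26 lists the 4 called members of lowest adjusted p (or fewer) and 2 of the highest level that did not pass. Some genes that the rule takes are not reported here. Promoter windows were read from RefSeq on GRCm38.p6.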

Additional observations from a re-analysis of the deposited data

Results flagged for a closer look

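Exit at 24 h was compared between the media by the interaction term, which was called in 2966 of 14288 genes. Within these, 10 genes picked by rule had exit effects called in opposite directions, and for each of them too the difference between the media was tested by that term of edgeR's quasi-likelihood fit. The rule took them from genes already called for the interaction, so that call was fixed by the choice. Their values below describe the picked genes and are no separate test.

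Of the 5 that fell from 2i/LIF and rose from serum/LIF+2i, P2rx7, an ATP-gated ion channel, had an interaction of 1.76 ± 0.28 on the log2 scale (SE), with exit effects of -0.93 ± 0.22 from 2i/LIF and 0.83 ± 0.18 from serum/LIF+2i. Tanc2, a postsynaptic scaffold protein, had 1.66 ± 0.31, from -0.83 ± 0.23 and 0.83 ± 0.21. Fam129a had 1.61 ± 0.10, from -0.82 ± 0.07 and 0.80 ± 0.07. Rap1gap2, an activator of the GTPase activity of RAP1, had 1.45 ± 0.33, with 6.75 and 4.08 CPM in serum/LIF+2i at 24 h. Adgre5, an adhesion receptor also called CD97, had 1.35 ± 0.12, and its exons overlap those of Ddx39 on the other strand.

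Of the 5 that rose from 2i/LIF and fell from serum/LIF+2i, Mapk8ip2 had -2.40 ± 0.36, from 1.61 ± 0.32 and -0.79 ± 0.17. Htra1 had -2.05 ± 0.29, from 0.80 ± 0.23 and -1.25 ± 0.17. The calponin Cnn2, a binder of actin, had -1.46 ± 0.21, the membrane protein Dcbld1 -1.41 ± 0.17 and Bok, a member of the BCL2 family, -1.23 ± 0.25. Each of the 10 interactions was called under all 16 settings tried, apart from the test against a minimum change of 1.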

How the results depend on the processing

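DESeq2 called fewer genes than edgeR: 1764 in place of 2966 for the interaction at 24 h, 576 for the interaction at 12 h, 2397 for the interaction at 40 h, 3097 for the medium difference at 0 h and 2717 for the medium difference at 24 h. Against a minimum log2 change of 1, 55 genes had an interaction at 24 h (76.4% positive, against 47.1%), 1768 an exit effect at 24 h in 2i/LIF, 2203 an exit effect at 24 h in serum/LIF+2i, 166 a medium difference at 0 h and 75 a medium difference at 24 h. Leaving out 1 library gave 2414 to 2633 interactions, exit effects for 7268 to 8538 and 8263 to 9313 genes, and differences between the media for 3546 to 4681 and 3104 to 4578. A group left with 1 library was assumed to vary like the others. With the replicate number as a block, 2990 interactions were called, 2947 of them shared. Differences between replicates correlated at 0.00095 to 0.0348 over 6 pairs of groups, so no effect common to a replicate number was seen. Whether libraries of the same number shared a culture or a day cannot be told from these values. Of 126 named genes with a called interaction, 104 kept it in all 16 other settings, 22 lost it in at least 1 and 0 reversed. With 2 libraries a group and 5931381 to 9634680 counts each, counting error is largest in genes of low counts.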
